A study of Mus musculus with 60 samples.

Results

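Dividing cells switch on a large set of genes together, and 40 of them were followed here across mouse tissues, tumours and cultured fibroblasts. The rule that picks them was a list of gene symbols, chosen by function. It holds 21 genes of mitosis, from Mki67 to Ttk, and 19 genes of DNA replication and entry into S phase, from Mcm2 to Ccne2. All 40 symbols were found once in each of the 2 count tables, among 46517 genes for fibroblasts and 54838 genes for tissues.

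The study made mice in which an FRT-flanked stop cassette at the Rosa26 locus is removed by the Flp recombinase, so that the fusion protein CD74-NRG1 is made from early embryonic life in nearly all tissues. Fibroblasts were grown from 9 embryos: 3 homozygous for the fusion transgene (Rosa26FSF.CD74-NRG1/FSF.CD74-NRG1), 3 heterozygous (Rosa26FSF.CD74-NRG1/Flp) and 3 negative ones (Rosa26Flp/Flp) that carry Flp and no fusion. Each embryo was sampled at passage 1 and passage 3. As written, the homozygous genotype shows no Flp allele and the negative one only Flp alleles. These 2 groups thus also differ in Flp, and fusion and Flp cannot be told apart between them. The tissue libraries came from 9 Rosa26CD74-NRG1/Flp mice, with 30 libraries of normal tissue and 12 of tumours, and no tissue of a mouse without the fusion was analysed here, so every normal tissue below also carries it. The groups were liver (8 mice), lung (7), spleen (6), muscle (6), brain (2), kidney (1), sarcoma (7 libraries of 6 mice, since mouse M00245 had 2), liver tumour (3) and intestine tumour (2 libraries of mouse M00247).

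Messenger RNA was counted by 3' end sequencing, with 3107529 to 5511781 counts per fibroblast library and 4837440 to 10089572 per tissue library. Levels are given in CPM, the counts of a gene as a share of all counts of its library, in the usual CPM unit, and a count of 0 allows up to 0.297 to 0.965 CPM depending on the library. Labels and data disagreed in some places. Nrg1 was at 132 and 147 CPM in embryo 1, labelled negative, and at 0.644 and 1.28 CPM in embryo 3, labelled homozygous. The column of embryo 8 taken as passage 3, which is its passage in the description and group label, is headed passage 5 and its sample is titled passage 1, while the sample used as passage 1 is titled passage 2, and the liver tumour of M00249 is titled only as liver. Summed over their own fixed markers, livers held 37342 to 66197 CPM, lungs 22383 to 77665 CPM and muscles 12880 to 24640 CPM. The intestine tumour libraries held 14.3 and 9.18 CPM summed over 6 markers of gut epithelium, with Cdx2 and Muc2 at 0, beside 1775 and 1210 CPM over 6 B cell markers. The label intestine tumour is therefore used here only as the name the submitters gave.

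A cell that commits to divide first activates E2F transcription factors, which raise the genes for loading and copying DNA. Cyclin E (Ccne1 and Ccne2) starts S phase, Cdc6 and Cdt1 load the Mcm2 to Mcm7 helicase onto origins, and Pcna, Rfc4, Pola1 and Pole serve at the fork while Rrm1, Rrm2 and Tyms supply nucleotides. The mitosis genes follow later, in G2 and M, and include cyclins A and B with their kinase Cdk1, the kinases Aurka, Aurkb, Plk1, Bub1 and Ttk, the spindle proteins Kif11, Tpx2, Prc1 and Nusap1, and Cdc20 and Ube2c, which drive the exit from mitosis. The late genes are known to be held down in resting cells by the DREAM complex through a promoter element called CHR, often near a CCAAT box, and the early genes through E2F sites.

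The early and late genes also differed in the letters of their promoters, and examples are shown here because they separate the 2 groups by something other than message level. RefSeq promoters (build GRCm38.p6, from 250 bases before to 50 bases after the gene start) were matched for 32 of the 40 members; Aurkb, Ccna2, Kif20a, Tpx2, Mcm4, Gins2, Pole and Ccne2 had no entry. Each window below is 30 bases, read 5′ to 3′ on the strand of the gene, with the element in capitals. The first set shows the CHR letters TTTGAA, or TTCAAA where the element lies on the opposite strand, at late genes.
Mki67 (chr7:135716460-135716489, minus strand): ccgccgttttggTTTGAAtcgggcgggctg
Top2a (chr11:99024195-99024224, minus strand): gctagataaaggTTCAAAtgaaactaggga
Cdk1 (chr10:69352910-69352939, minus strand): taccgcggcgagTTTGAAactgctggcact
Cdc20 (chr4:118437344-118437373, minus strand): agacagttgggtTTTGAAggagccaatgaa
Ube2c (chr2:164769888-164769917, plus strand): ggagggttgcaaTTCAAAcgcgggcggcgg
The second set shows E2F letters at early genes.
Mcm5 (chr8:75109348-75109377, plus strand): ccaagaactttcGCGCCAAaacgtccagcc
Rrm1 (chr7:102441616-102441645, plus strand): caggagaactcgTTCCCGCcaggtccgctt
Cdc6 (chr11:98908001-98908030, plus strand): ggccggtggagaGCGGGAAatcgcctgggg

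Searched on both strands, TTTGAA stood in 14 of 18 promoters of mitosis members (77.8%), in 1 of 16 promoters of replication members (6.25%, that of Mcm2) and in 17.9% of all 32851 promoters in the table. The E2F letters, spelled TTCCCGC or else TTGGCGC or else TTCGCGC or else TTGCCGC, went the other way, with 3 of 18 promoters of mitosis members (16.7%), 11 of 16 of replication members (68.8%) and 9.57% of all promoters. CCAAT stood in 16 of 18 (88.9%) and 10 of 16 (62.5%) against 37.4% of all. Some members had more than 1 promoter entry, so the same letters can be counted more than once. By gene, TTTGAA stood in 13 of 17 mitosis and 1 of 15 replication members. The E2F letters stood in 3 of 17 and 10 of 15, and CCAAT in 15 of 17 and 9 of 15. The spellings were chosen as known elements after several had been tried. With TTCGAA also allowed for CHR the shares were 83.3%, 12.5% and 19.2%, with only TTCCCGC and TTGGCGC for E2F they were 16.7%, 62.5% and 6.81%, and with a T added before each of the 4 E2F spellings they were 5.56%, 43.8% and 2.26%. A match is a stretch of letters and shows no binding.

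Across normal tissues the summed members were lowest in liver by median for both groups and highest in spleen, and the mitosis genes spread far more than the replication genes. By gene, the highest median was in spleen for 40 of 40 members, and the lowest was in liver for 21, brain for 14 and kidney for 5. Summed over the 21 mitosis members, liver libraries ranged from 19.05 to 270 CPM with a median of 29.2, and spleen libraries from 943 to 4939 CPM with a median of 3440. Summed over the 19 replication members, liver ranged from 71.9 to 259 CPM (median 100.3) and spleen from 631 to 2481 CPM (median 1603). The 2 brain libraries were at 33.2 and 56.2 CPM for mitosis and 128 and 132 CPM for replication, and the kidney library at 84.3 and 131 CPM. Lung ranged from 97.98 to 674 CPM (median 168) for mitosis and from 188 to 505 CPM (median 237.2) for replication. Muscle ranged from 122 to 234 CPM (median 177) and from 99.3 to 213 CPM (median 135). Lung and muscle overlapped in both sums, as did brain and liver, and no spleen library overlapped any other normal tissue in either sum.

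**Figure D1:**
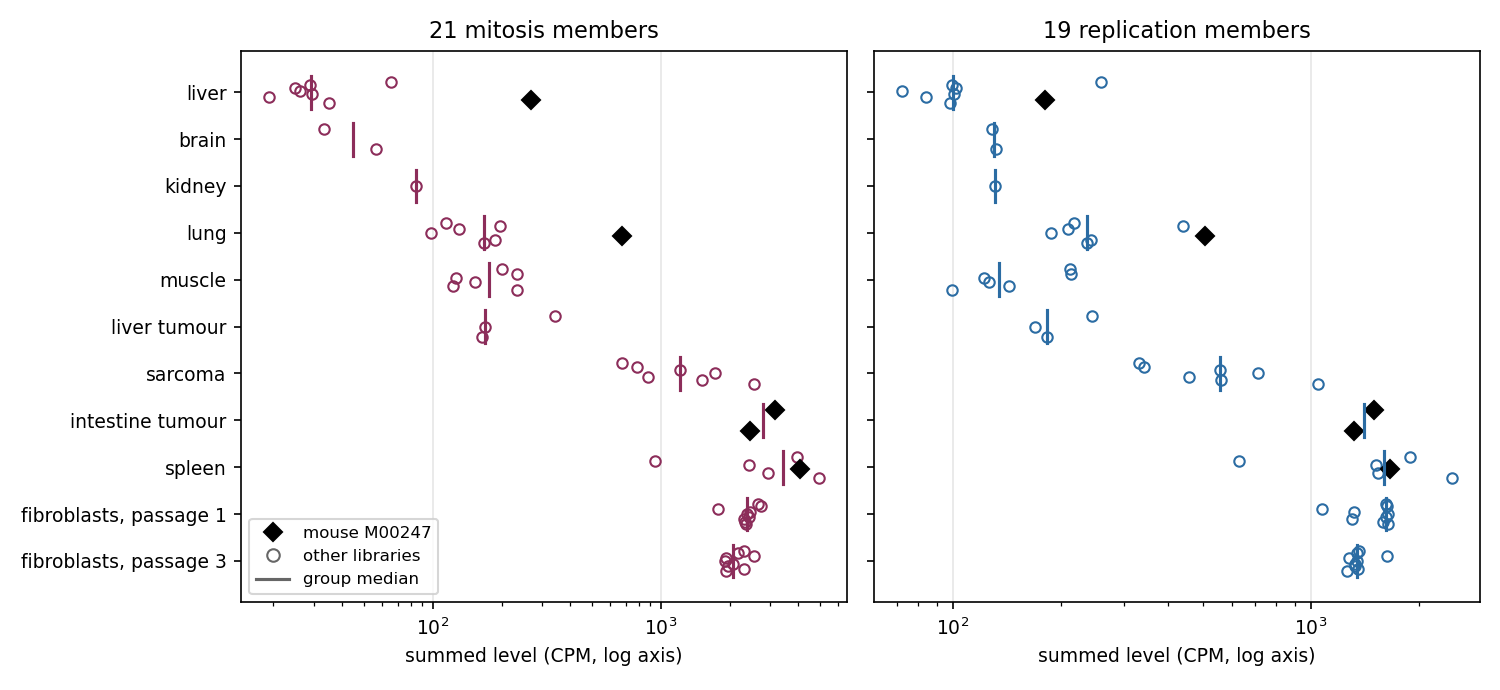
Summed level (CPM, log axis) of the 21 mitosis members (left) and 19 replication members (right) in each library, 1 row per group; lines are group medians and black diamonds the libraries of mouse M00247. The M00247 liver sits at 270 CPM for mitosis, apart from the other livers at 19.05 to 65.2 CPM, while for replication the highest liver is another, at 259 CPM.

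The balance between the 2 groups also differed by tissue. The mitosis sum divided by the replication sum had a median of 0.292 in liver, 0.620 in lung, 1.07 in muscle, 1.95 in spleen and 2.31 in sarcoma. Livers and lungs other than those of M00247, both brains and the kidney thus held more replication than mitosis message. Spleens, sarcomas and intestine tumours showed the reverse, and muscles and liver tumours fell on both sides. In whole tissue, fewer dividing cells and less RNA per dividing cell cannot be told apart.

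Spleen exceeded the other normal tissues in nearly every member. Mki67, the antigen that marks cycling cells, was at 176 to 1153 CPM in spleen (median 891), 2.30 to 41.9 CPM in liver (median 3.26), 8.63 to 105 CPM in lung (median 15.1) and 13.7 to 24.3 CPM in muscle (median 20.0). The ranges of spleen did not overlap those of the other tissues. Cdc6, which loads the helicase, was at 12.01 to 106 CPM in spleen (median 54.2) and at 0 to 1.72 CPM in liver (median 0.649). The lowest spleen library lay above every liver library for both genes.

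Against liver, 40 of 40 members were higher in spleen (edgeR quasi-likelihood test, adjusted p below 0.05), where 38.2% of all genes tested were higher, and 0 were lower, beside 36.1% of all genes. The median log2 fold change was 4.88 for mitosis members, 3.09 for replication members and 0.09 for all genes. Mki67 differed by 5.98 ± 0.76 (log2, SE, adjusted p = 2.7e-06), Top2a, the topoisomerase that untangles chromosomes, by 5.20 ± 0.73 (adjusted p = 8.6e-06), and Mcm2 by 3.53 ± 0.44 (adjusted p = 2.0e-06). Without the liver of M00247, which held more of both, the differences were 7.21 for Mki67 and 6.29 for Top2a. Pola1, a subunit of DNA polymerase alpha, had the smallest adjusted p, 1.4e-07, with 2.97 ± 0.29. At the low end were Gins2, a helicase partner, at 1.499 ± 0.301 and Kif20a, a cytokinesis motor, at 1.69 ± 0.26.

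Within the mitosis members, the cyclins stood close together against liver, with Ccna2 higher by 5.02, Ccnb1 by 4.96 and Ccnb2 by 5.10 on the log2 scale. Ccnb1, the cyclin that brings Cdk1 to its mitotic substrates, was at 0 to 7.65 CPM in liver (median 0.134) and 20.5 to 97.6 CPM in spleen (median 64.4). Among the kinases, Plk1 was higher by 4.57, Bub1 and Bub1b each by 4.23, Aurkb by 3.77 and Aurka by 3.39. Ube2c was higher by 5.39 and Birc5, the survivin subunit of the Aurkb complex, by 5.29.

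Most replication members were higher by less, with Cdc6 the exception at 5.60. The helicase subunits ran from 2.72 for Mcm4 to 3.81 for Mcm5. The clamp Pcna was higher by 2.30 and its loader subunit Rfc4 by 2.56. Of the nucleotide enzymes, Rrm2 was higher by 3.25, Rrm1 by 3.22 and Tyms by 1.97. Rrm2, the limiting subunit of ribonucleotide reductase, was at 3.49 to 14.8 CPM in liver and 32.0 to 255 CPM in spleen, and the groups did not overlap.

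Against lung, 39 members were higher in spleen, beside 25% of all genes, and 0 lower, beside 27.8%, with medians of 4.15 for mitosis, 3.01 for replication and 0.04 for all genes. Mki67 differed by 5.20 ± 0.66, Top2a by 4.15 ± 0.61 and Mcm2 by 3.01 ± 0.45. Without the lung of M00247 the first 2 were 5.97 and 4.99. The member not past the threshold was Gins2, with 0.56 ± 0.37 (adjusted p = 0.22). Against muscle, all 40 were higher, beside 34.7% of all genes, and 0 lower, beside 33.5%, with medians of 3.53, 2.88 and 0.06. Ccne1 differed most clearly, by 4.74 ± 0.40 (adjusted p = 6.5e-08), from 15.3 to 75.9 CPM in spleen to 0.664 to 1.94 CPM in muscle. Mki67 differed by 4.96 ± 0.44, Top2a by 3.77 ± 0.39 and Mcm2 by 3.69 ± 0.35. Fold changes use TMM scaling and so differ from ratios of CPM. The 3 comparisons share the spleen libraries, so their counts are not separate evidence.

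The spleens carried 75610 to 159855 CPM summed over 10 erythroid markers and 472 to 1605 CPM over 6 B cell markers. The spleen of M00245, which had the lowest member sums (943 CPM for mitosis), also had the highest B cell and T cell sums, 1605 and 290 CPM, and an erythroid sum of 82296 CPM. Without it, 39 members were higher than in lung and 40 than in muscle. The shares of all genes higher in these fits without it are not given here. The part of these cell types in the levels was not tested.

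**Figure D2:**
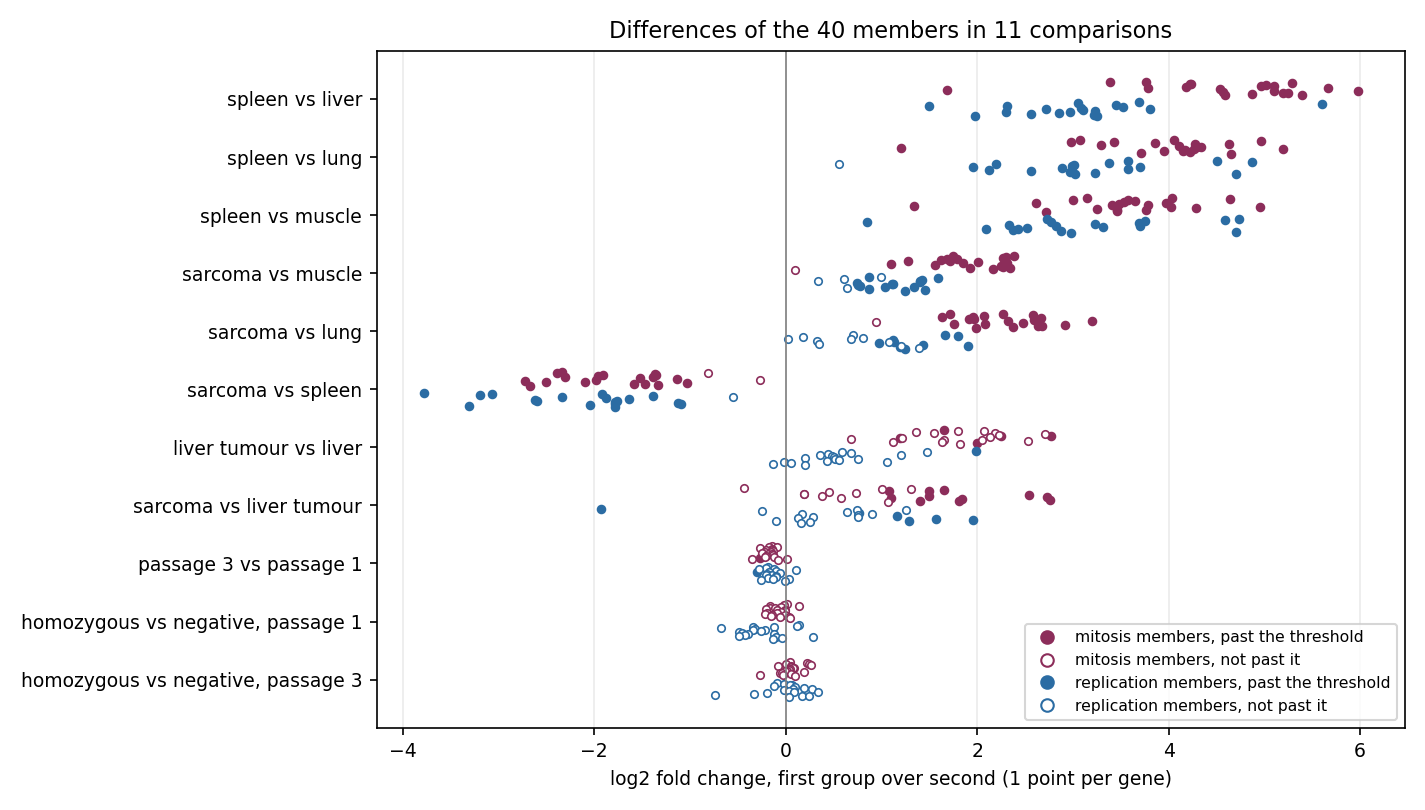
Log2 fold change of each of the 40 members (1 point per gene) in 11 comparisons, the first named group over the second; filled points passed adjusted p below 0.05 in edgeR and open points did not. Points for spleen and sarcoma against normal tissues lie to the right of 0, those for sarcoma against spleen to the left, and those for fibroblasts within 1 unit of 0.

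By median of the sums, the sarcomas held more of these messages than muscle or lung and less than spleen, with overlap. Sarcomas ranged from 675 to 2570 CPM for mitosis and from 330 to 1045 CPM for replication. The spleen of M00245, at 943 and 631 CPM, lay within both ranges, and that of M00246, at 2436 CPM, within the first. The lungs of M00238 and M00247, at 438 and 505 CPM, lay within the second. Top2a was at 155, 247.1, 329, 393 and 684 CPM in the sarcomas of M00235, M00236, M00237, M00238 and M00248, and at 216 and 434 CPM in the 2 sarcomas of M00245. Muscle had 22.1 to 50.9 CPM (median 35.3), and no muscle reached the lowest sarcoma. Mcm2 was at 14.6 to 66.0 CPM in sarcoma (median 23.5) and 2.60 to 10.2 CPM in muscle (median 5.06), also without overlap. The sarcoma of M00248 was highest in both and that of M00235 lowest. Between the 2 sarcomas of M00245, the mitosis sum was 880 and 1521 CPM and the replication sum 456 and 561 CPM.

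Against muscle, 35 of 40 members were higher in sarcoma, beside 33.6% of all genes, and 0 were lower, beside 31.4%. The medians were 1.92 for mitosis, 1.04 for replication and 0.06 for all genes. Mki67 had the smallest adjusted p, 3.0e-06, with 2.29 ± 0.25, followed by Top2a with 2.34 ± 0.30 and Ttk, a spindle checkpoint kinase, with 2.17 ± 0.29. Mcm2 differed by 1.40 ± 0.35 (adjusted p = 0.0030). Cenpf, a kinetochore protein, was at 77.2 to 272 CPM in sarcoma and 8.13 to 28.2 CPM in muscle, higher by 2.32. Aurkb, the kinase of the chromosomal passenger complex, had the largest fold change of the members, 2.39 ± 0.40, from 0.553 to 2.99 CPM in muscle to 3.83 to 23.5 CPM in sarcoma. The helicase subunits were higher by 0.74 (Mcm4) to 1.40 (Mcm2 and Mcm3), Pola1 by 1.34 and E2f1 by 1.43. Ube2c, Cdt1, Gins2, Rfc4 and Ccne1 did not pass. Ube2c, the ubiquitin conjugating enzyme of mitotic exit, was at 20.4 to 87.0 CPM in sarcoma and 17.5 to 27.0 CPM in muscle, which overlap.

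Against lung, 29 members were higher in sarcoma, beside 18.1% of all genes, and 0 lower, beside 23.8%. The 29 were 20 of 21 mitosis members and 9 of 19 replication members. Prc1, which bundles the central spindle, differed by 2.92 ± 0.42 (adjusted p = 3.8e-05), Top2a by 2.68 ± 0.54 and Mki67 by 2.48 ± 0.52. Cenpf was higher by 3.20, from 3.63 to 48.2 CPM in lung, and Pole, the catalytic subunit of the leading strand polymerase, was higher by 1.90. Mcm2, at 0.69 ± 0.43 (adjusted p = 0.22), and Gins2, at 0.02 ± 0.30, did not pass. The lungs spanned a wide range, because that of M00247 was high in most members and that of M00238 held 135 CPM of Pcna and 87.0 CPM of Gins2, above every other lung. Without the lung of M00247, 34 members were higher, with Mki67 at 3.26 and Top2a at 3.53, and with the mouse as a block these were 3.57 and 3.71. The share of all genes higher without that lung is not given here.

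Against spleen, 37 of 40 members were lower in sarcoma, beside 29.9% of all genes, and 0 higher, beside 27%, with medians of -1.58 for mitosis, -1.87 for replication and -0.09 for all genes. Ccne1 fell furthest, by 3.78 ± 0.49 on the log2 scale (adjusted p = 1.2e-05), from 15.3 to 75.9 CPM in spleen to 1.04 to 10.6 CPM in sarcoma. Mki67 fell by 2.72 ± 0.45, Mcm2 fell by 2.33 ± 0.39 and Top2a fell by 1.47 ± 0.41. Among replication members Rrm2 fell by 3.31, Cdt1 by 3.19 and Cdc6 by 3.07, and the smallest called changes were those of Pole and Pola1, at -1.09 and -1.12. Among mitosis members Ube2c fell by 2.66 and Prc1 by 1.03. Aurkb, Kif20a and Gins2 did not pass, and Aurkb, at 3.83 to 23.5 CPM in sarcoma and 4.06 to 32.8 CPM in spleen, overlapped over most of its range. With the mouse as a block, 14 members were lower instead of 37, from 3 mice with both tissues, and Top2a, at -0.61 (adjusted p = 0.32), was not among them. The share of all genes lower with the block is not given here.

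The 2 members that differed least in the 4 comparisons with spleen, Gins2 and Kif20a, are also among those whose counts are least certain. Of their tissue values, 97.6% and 90.5% were not whole numbers, so their reads were divided between genes. In at least 1 of the tables, 19 of the 40 members had more than 10% such values, and in tissues Ccna2 had 100% and Mki67 64.3%.

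Liver tumours held more mitosis and more replication message than most livers, with the larger gap in mitosis. The mitosis sum was 343, 169 and 165 CPM in the tumours of M00236, M00248 and M00249, and 270 CPM in the liver of M00247, 65.2 CPM in that of M00235 and 19.05 to 35.0 CPM in the other livers. The replication sum was 245.2, 169 and 183 CPM in the tumours, and 181 CPM in the liver of M00247, 259 CPM in that of M00235 and 71.9 to 102 CPM in the other livers. Cdk1, the mitotic kinase, was at 43.7, 15.0 and 12.03 CPM in the tumours and at 1.35 to 15.3 CPM in the livers (median 2.35). The tumour of M00236 was the highest for Cdk1, and the others lay within the liver range only through the liver of M00247, at 15.3 CPM. The other livers ended at 8.92 CPM, below all 3 tumours. Ccne1 was at 3.37, 22.5 and 2.91 CPM, highest in the tumour of M00248, beside 0.923 to 4.48 CPM in livers. The 4.48 CPM was again the liver of M00247, and the other livers ended at 2.81 CPM, below all 3 tumours.

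By the test, 6 of 40 members were higher in liver tumour, beside 6.98% of all genes, and 0 were lower, beside 3.63%. They were Kif20a at 1.20 ± 0.30 (adjusted p = 0.024), Cdc20 at 2.77 ± 0.71 (adjusted p = 0.028), Aurka at 1.66 ± 0.46 (adjusted p = 0.036), Ttk at 2.00 ± 0.56 and Ccne1 at 1.99 ± 0.56 (both adjusted p = 0.039), and Cdk1 at 2.25 ± 0.66 (adjusted p = 0.045). Ccnb1 at 2.70 and Prc1 at 2.53 did not pass, although only Cdc20 of the 6 had a larger fold change. Mki67 at 0.69 ± 0.81, Top2a at 1.13 ± 0.81 and Mcm2 at 1.21 ± 0.54 did not pass, while DESeq2 called Mki67 at 1.79 and Top2a at 2.04. The median was 1.82 for mitosis members, 0.51 for replication members and 0.09 for all genes. This count rests on single libraries. Without the liver of M00247 it was 21, made of 20 mitosis members and Ccne1, with Mki67 at 1.88, Top2a at 2.18 and Ccnb1 at 4.30; with the mouse as a block (2 mice with both) it was 0. It was 0 without the liver of M00238, 1 without that of M00246 or M00248 or the tumour of M00236, 2 without the liver of M00236 or M00237, and 3 without the liver of M00245 or the tumour of M00248. The shares of all genes called in these further fits are not given here, so the counts have no background.

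Sarcoma and liver tumour differed in part of the members. Top2a was at 32.7, 24.8 and 22.0 CPM in the liver tumours, below every sarcoma. By the test 16 members were higher in sarcoma, beside 30.2% of all genes, and Ccne1 was lower at -1.93 ± 0.70 (adjusted p = 0.034), beside 25.6% of all genes lower. Mki67 differed by 2.73 ± 0.40, Top2a by 2.76 ± 0.43 and Mcm2 by 0.17 ± 0.48 (adjusted p = 0.78). The share of members higher, 16 of 40, is near the background. With the mouse as a block 4 were higher and 0 lower, without the liver tumour of M00248 or M00249 there were 9 or 8 higher, and the call of Ccne1 was lost without any of the sarcomas of M00235, M00236 and M00237 or the liver tumour of M00248.

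Among the 8 normal livers, those of M00247 and M00235 were high in both groups of genes, M00247 most in mitosis and M00235 most in replication. The liver of M00247 was the highest of the 8 for 20 of 20 mitosis members with a mean count of at least 5, and for 2 of 19 replication members, where 24.9% of all genes were highest in it. The liver of M00235 was the highest for 16 of 19 replication members and for 0 of 20 mitosis members, where 14.4% of all genes were highest in it. Counting the highest or second place, the liver of M00247 had 15 of 19 replication members, beside 37.7% of all genes, and that of M00235 had 13 of 20 mitosis members, beside 29.8%. The mean was taken over all 8 livers, for members and for all genes. A gene rare elsewhere could thus pass through the library in which it was highest. Aurkb, with 26 counts in the liver of M00247 and 0 to 8 in the others, passed this way, as did Bub1b and Ccnb1. Cdc6 passed this way through the liver of M00235. The 20 of 20 was thus in part set by the filter. These counts describe 1 library each and have no test.

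In the liver of M00247, Mki67 was at 41.9 CPM (290 counts) and the other livers at 2.30 to 5.49 CPM (median 3.15). Top2a was at 54.6 CPM and the others at 2.03 to 13.8 CPM. Plk1 was at 10.1 CPM and the others at 0.143 to 1.74 CPM. The mitosis gene closest to the rest was Kif20a, at 6.64 CPM against 3.01 to 6.33 CPM. Of its replication members Pola1 (7.22 CPM) and Ccne1 (4.48 CPM) were the highest of the 8, and 13 others came second to that of M00235. Mcm2 was at 8.52 CPM, with 15.2 CPM in the liver of M00235 and 1.53 to 4.19 CPM in the other 6. Mcm6 was at 13.1 CPM, with 19.7 CPM in that of M00235 and 1.76 to 4.22 CPM in the other 6. Tyms, Gins2, Pole and E2f1 were neither highest nor second in it. The ratio of the mitosis to the replication sum was 1.49 in this liver and 0.227 to 0.362 in the other 7.

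In the liver of M00235, Mcm2 was at 15.2 CPM and the other 7 livers at 1.53 to 8.52 CPM. Mcm5 was at 13.8 CPM and the highest other liver at 6.35 CPM. Cdt1, the licensing factor, was at 13.5 CPM with the next at 5.34 CPM, and E2f1 at 8.24 CPM with the next at 4.47 CPM. Its mitosis sum of 65.2 CPM was the second of the 8, well under the 270 CPM of M00247. Ccnd1, the cyclin of early G1, was also highest in it, at 306 CPM, with 171 CPM in the liver of M00247 and 29.0 to 79.0 CPM in the other livers.

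Of the blood cell markers, those of neutrophils stood out most in the organs of M00247. The sum over 7 neutrophil genes was 4248 CPM in its liver against 5.73 to 29.6 CPM in the other livers, 6350 CPM in its lung against 150 to 723 CPM, and 20532 CPM in its spleen against 138 to 1666 CPM. Mpo and Elane, made by early granulocyte precursors, were at 123 and 94.3 CPM in the liver and at 14.9 and 7.44 CPM in the lung. Its lung was the highest of the 7 lungs for 19 of 21 mitosis and 15 of 19 replication members, beside 14.9% of all genes, with Mki67 at 105 CPM against 8.63 to 27.0 CPM. Its spleen was the highest of 6 for 2 of 21 and 6 of 19, beside 15.9% of all genes. The B cell sum was 628 CPM in its lung against 67.9 to 166 CPM in the other lungs, and 27.7 CPM in its liver against 3.09 to 10.2 CPM. The erythroid and T cell sums of M00247 lay within the range of the other mice in liver (2969 and 6.35 CPM) and in lung (21140 and 43.6 CPM). The B cell sum of its spleen, 932 CPM, also lay within the range of the other spleens. The sum over macrophage markers was 880 CPM in its liver against 189 to 663 CPM. The part of these cells in the levels was not tested.

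**Figure D3:**
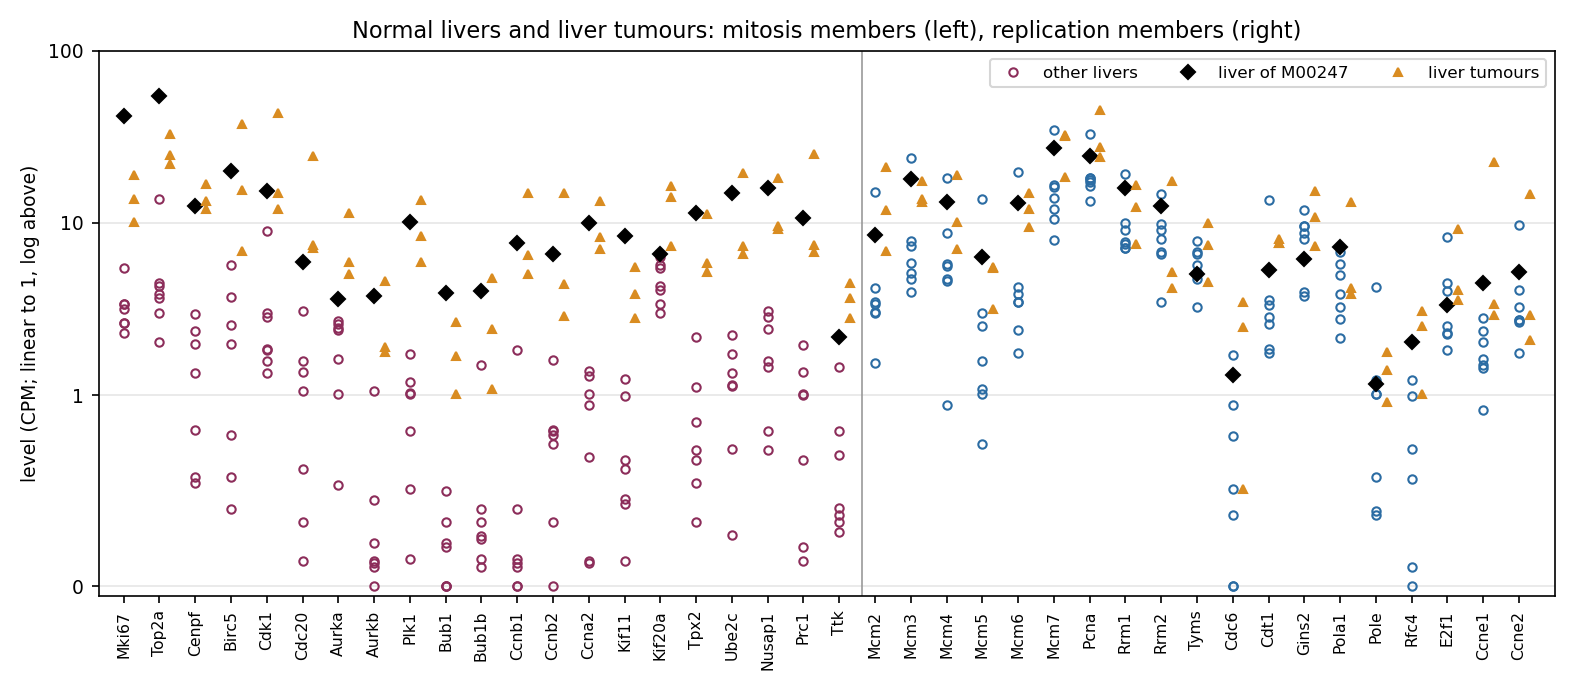
Level of each member (CPM, linear to 1 and log above) in the 7 other normal livers (open circles), the liver of M00247 (black diamonds) and the 3 liver tumours (orange triangles), with mitosis members left of the line and replication members right. On the left the diamond lies above every circle, as for Mki67 at 41.9 CPM; on the right it lies above every circle for Pola1 and Ccne1 and is second to 1 circle for 13 others, as for Mcm2 at 8.52 CPM under 15.2 CPM.

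The 2 intestine tumour libraries of M00247 were close to spleen in these genes. Mki67 was at 546 and 373 CPM, Top2a at 943 and 727 CPM and Mcm2 at 71.6 and 62.8 CPM, all within the spleen range. Both libraries lay above every liver in 40 of 40 members (beside 54.1% of all genes), above every lung in 38 (20%), above every muscle in 40 (47%), above every liver tumour in 39 (48.6%) and above every sarcoma in 24 (18.3%). They lay above every spleen in 1 member (22.3%), Bub1b, the checkpoint kinase, at 56.9 and 52.6 CPM against 13.0 to 42.8 CPM. Below every library of a group there were 0 members for each of the 6 groups, beside 17.6% of all genes for liver, 29.8% for lung, 23.7% for muscle, 10.9% for spleen, 32.3% for sarcoma and 18.9% for liver tumour. As 1 mouse gave both, there is no test.

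Cultured fibroblasts divide, and all 40 members were detected in them, with small differences between passages. The mitosis sum was 1786 to 2757 CPM at passage 1 and 1906 to 2566 CPM at passage 3, and the replication sum 1075 to 1643 CPM and 1265 to 1629 CPM. Fibroblast and tissue values come from separate tables and were not tested against each other. Embryos 1 to 8 mostly went down with passage and embryo 10 went up. In embryos 1 to 8, 25 to 38 of the 40 members were lower at passage 3, and in embryo 10, labelled homozygous, 39 of 40 were higher.

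Top2a was at 219 to 323 CPM at passage 1 and 214 to 311 CPM at passage 3. It fell by 0.26 ± 0.07 on the log2 scale (adjusted p = 0.048), and was lower in 8 of 9 embryos. Embryo 10 gave both ends, with the lowest value at passage 1 (219 CPM) and the highest at passage 3 (311 CPM). Mcm2 fell by 0.29 ± 0.07 (adjusted p = 0.040), also in 8 of 9 embryos. Mki67 at -0.13 ± 0.13 (adjusted p = 0.68) did not pass. The 2 calls of 40 stand beside 1.01% of all genes lower, 0 members were higher beside 1.81%, and the medians were -0.15 for mitosis, -0.14 for replication and 0.00 for all genes; 37 of the 40 fold changes were below 0.

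These calls did not hold when the embryos were treated as pairs, although the fold changes stayed at -0.30 for Mcm2 and -0.26 for Top2a. With the embryo as a block 0 members passed, with Mcm2 at adjusted p = 0.073 and Top2a at 0.099, and 0 passed without any 1 of embryos 1 to 8 or without embryos 1 and 3 together. Without embryo 10, 12 members were lower, 8 of them mitosis members (Top2a, Plk1, Birc5, Ttk, Cdc20, Ccna2, Cdk1 and Cenpf) and 4 replication members (Mcm2, Mcm3, Mcm7 and Rrm2). Its passage 1 library differed in other cell cycle genes too, with Cdkn1a, the p21 inhibitor of cyclin kinases, at 519 CPM against 172 to 250 CPM in the other embryos and 204 CPM at its own passage 3. Embryos 2, 3 and 10 at passage 1 also held 42.5 to 79.6 CPM of 8 macrophage markers against 521 to 977 CPM in the others. Without them 7 members were lower. For the fits without embryo 10 and without embryos 2, 3 and 10, the share of all genes lower is not given here. Whether the gain in calls among the members goes beyond that of all genes is therefore not shown here.

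**Figure D4:**
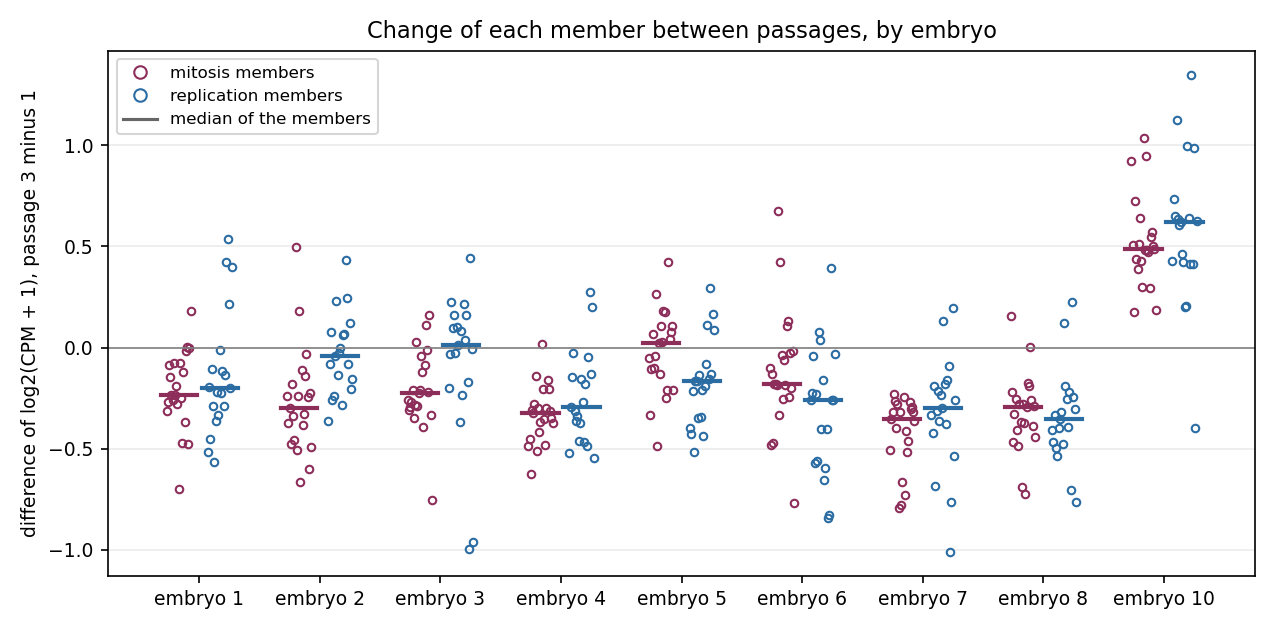
Difference of log2(CPM + 1) between passage 3 and passage 1 for each member in each embryo, mitosis members left and replication members right of each position, with bars at their medians. The medians of embryo 10 are 0.49 and 0.62, above 0, and those of embryo 7 are -0.35 and -0.30.

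Between fibroblasts labelled homozygous and negative, 0 of 40 members passed in edgeR at either passage, as did 0% of all genes. At passage 1, 1315 genes had an unadjusted p below 0.05, 5.97% of all genes higher and 4.94% lower in fibroblasts labelled homozygous. Of the members 6 were among them, 0 higher and 6 lower, and DESeq2 called 1 member, E2f1. E2f1, which drives the replication genes, was at 50.2, 72.2 and 40.8 CPM in embryos 3, 7 and 10, labelled homozygous, and at 79.6, 85.6 and 97.0 CPM in embryos 1, 5 and 8, labelled negative, a difference of -0.68 ± 0.15 (adjusted p = 0.29 in edgeR). As labelled these groups do not overlap, but embryos 1 and 3 are those whose Nrg1 goes against the label, and with these 2 exchanged the ranges would overlap. Without them the difference was -0.71 (adjusted p = 0.61). The median was -0.25 for replication and -0.06 for mitosis members. Mki67 was at -0.09 ± 0.23, Top2a at -0.15 ± 0.12 and Mcm2 at -0.22 ± 0.12, none past the threshold. Without embryo 7, 6 members were lower: Mcm3, Mcm5, Mcm6, Mcm7, Cdt1 and E2f1, beside 4.5% of all genes lower, and 0 were higher, beside 2.73%. The embryos then left as homozygous, 3 and 10, held 42.5 and 53.6 CPM of macrophage markers and 4741 and 4159 CPM of fibroblast markers, against 521 to 977 CPM and 6903 to 7789 CPM in the embryos labelled negative, and the part of this in the calls was not tested. At passage 3, 451 genes had an unadjusted p below 0.05, DESeq2 called 0 members, and the medians were 0.05 for both groups, with Mki67 at -0.01 ± 0.23, Top2a at 0.05 ± 0.12 and Mcm2 at 0.19 ± 0.12.

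Of 40 other cell cycle genes (starters of the cycle, inhibitors of cyclin kinases, E2F and DREAM regulators, checkpoint genes), 31 were higher and 3 lower in spleen than in liver, 31 and 4 against lung, and 30 and 4 against muscle. The shares of all genes higher and lower were 38.2% and 36.1% against liver, 25% and 27.8% against lung, and 34.7% and 33.5% against muscle. Mybl2, a partner of the complex that activates late genes, differed by 5.77 ± 0.78 against liver, and Foxm1, which activates mitosis genes, by 5.30 ± 0.65. In sarcoma against muscle 19 were higher and 5 lower, beside 33.6% and 31.4% of all genes. Foxm1 was higher by 2.62 ± 0.35 and Ccnd3 by 2.72 ± 0.21. The inhibitors split, with Cdkn2a higher by 5.30 ± 0.71 and Cdkn1a and Cdkn1c lower, at -2.51 ± 0.35 and -2.77 ± 0.45.

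Against lung 19 were higher and 6 lower in sarcoma, beside 18.1% and 23.8% of all genes, and against spleen 5 were higher and 21 lower, beside 27% and 29.9%. Ccnd1, whose protein opens the cycle with Cdk4 and Cdk6, was among the 5, higher in sarcoma than in spleen by 2.74 ± 0.26 (adjusted p = 4.9e-07), at 704 to 1660 CPM against 42.4 to 177 CPM. In liver tumour 2 of 34 tested were higher, a share near the 6.98% of all genes, and both are inhibitors: Cdkn1a at 3.23 ± 0.53 (adjusted p = 0.0027), with 71.9, 196 and 181 CPM in the tumours and 2.16 to 43.0 CPM in livers, and Cdkn2a at 2.15 ± 0.64 (adjusted p = 0.049). In sarcoma against liver tumour 14 were higher, near the 30.2% of all genes, and 1, Cdk4, was lower, beside 25.6%. Between passages 0 were higher and 3 lower, beside 1.81% and 1.01% of all genes, among them Cdkn1c, an imprinted inhibitor, at -1.36 ± 0.25 (adjusted p = 0.015), and between genotypes 0 passed at either passage.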

How the data were processed

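RNA of 60 mouse libraries was sequenced from its 3' ends with the Lexogen QuantSeq kit on a HiSeq 4000, per the labels' protocols. The authors deposited estimated counts per gene (expected counts, 6.60% of fibroblast and 8.35% of tissue values not whole), and for the aligner, counter and build the entry is: not given in the sources used here. Deposited CPM tables were not used. Counts were rounded and tested with edgeR 4.0.16 in R 4.3.3 (quasi-likelihood test, TMM scaling, filterByExpr with a minimum count of 10, Benjamini-Hochberg adjustment over all genes, threshold 0.05). Standard errors were taken from the F statistic. The 18 fibroblast libraries shared 1 fit of 6 groups; tissue fits held the 2 groups compared, with both M00245 sarcomas summed. Fold changes are log2, with SE. Alternatives were DESeq2 1.42.0, RLE scaling, other filters, blocks and left-out libraries. The fits were tested on simulated data. Passages share embryos and tissues share mice, so same-numbered samples pair by animal (6 of 9 embryo pairs correlated above 0.1, range 0.05 to 0.34). In tissues the pairs above 0.1 were 3 of 5 for spleen with lung and 1 of 5 for spleen with liver. They were 1 of 4 each for spleen with muscle, sarcoma with muscle and sarcoma with lung. They were 0 of 3 for sarcoma with spleen, and 0 of 2 each for liver tumour with liver and with sarcoma. CPM levels are raw counts over library totals; 3 counts were taken as the limit of a count of 0, for counting error only. The main fits did not use this pairing, so their p-values measure the spread between libraries taken as separate, although some share an animal. The 2 intestine tumour libraries are of 1 mouse and have no p-value. The members and lists were chosen with earlier results of these data known. By rule Mki67, Top2a and Mcm2 are given in each comparison, with up to 8 members per direction of smallest adjusted p, members that go against most others, and up to 4 of each other cell cycle list; other examples were chosen after their values were seen.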

Additional observations from a re-analysis of the deposited data

Results flagged for a closer look

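Values were set apart when the gap to the nearest library was large beside the range of a group of 4 to 10 libraries. For normally spread values chance gives this in about 1 of 20 groups. The rule was applied to CPM without a log scale, whose spread was not tested, so that rate may not hold here. The liver of M00247 was high in the mitosis sum (270.3 CPM), Mki67 (41.87 CPM) and Top2a (54.57 CPM). The lung of the same mouse was high in the mitosis sum (674.4 CPM), Mki67 (104.6 CPM) and Top2a (183.3 CPM). Embryo 10 was low at passage 1 in the mitosis sum (1786 CPM) and Top2a (218.6 CPM). It was high at passage 3 in the replication sum (1629 CPM), Top2a (311.4 CPM) and Mcm2 (81.59 CPM). Over single members, 63 of 280 such tests stood apart, 16 of them high in the liver of M00247 and 24 high in its lung. The members share the same libraries, so these are not separate tests, and the rule was not applied to all genes. Of all genes with a mean count of at least 5, 24.9% were highest in that liver and 14.9% in that lung.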

How the results depend on the processing

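Members lower at passage 3 numbered 2; they were 4 with DESeq2, 0 with the embryo as a replicate block, 0 without embryos 1 and 3, 7 without embryos 2, 3 and 10, and 0 to 12 when 1 embryo was left out. Members lower in fibroblasts labelled homozygous at passage 1 numbered 0; they were 1 with DESeq2, 1 with no filter on low counts, and 0 to 6 when 1 embryo was left out. In sarcoma against spleen 14 were lower with the mouse as a block. In liver tumour against liver the higher members were 13 with DESeq2, 2 at a mean of at least 5 CPM, 0 with the mouse as a block, 11 with all 6 groups in 1 fit, 21 without the liver of M00247, and 0 to 21 when 1 library was left out. In sarcoma against liver tumour 4 were higher and 0 lower with the block, 8 higher with all groups in 1 fit, and 0 lower with only the second M00245 sarcoma; with 1 library left out 8 to 20 were higher and 0 to 1 lower. The block changed no other count by over 1.5 times, and the cause of these shifts was not tested. Except for the fit without embryo 7, the share of all genes called under an alternative is not given here.

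Between genotypes, Mki67 was at 0.17 (passage 1) and 0.20 (passage 3) without embryos 1 and 3, and with 1 embryo left out at -0.43 to 0.16 and -0.15 to 0.13. Top2a at passage 3 was at -0.073 to 0.12, and Mcm2 in sarcoma against liver tumour at -0.24 to 0.70. Of 504 values of single genes under alternatives, 467 kept direction and call, 21 lost the call, 7 gained it and 9 changed sign. Group medians of the mitosis and replication sums were also taken in other ways. These were TMM scaling, totals without mitochondrial, haemoglobin and immunoglobulin genes, and sums without the member of highest mean. Of these medians 14 moved by at least the standard deviation of their group, so some summed levels depend on the scaling or on the member left out. Leaving out a member can only lower a sum, so the direction of that shift was fixed in advance. The 14 are not split by setting here. Leaving out each library in turn was not run for spleen against lung or muscle or for sarcoma against lung. Reads divided between genes limit Gins2, Kif20a, Ccna2 and others, and in livers several mitosis members had few counts.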
